A study of Mus musculus with 9 samples.

Results

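The glucocorticoid receptor gene Nr3c1 and 8 genes that glucocorticoids are known to induce (Tsc22d3, Fkbp5, Glul, Cebpd, Klf9, Sgk1, Errfi1 and Zbtb16) were followed in stem cells of the mouse hair follicle, from male C57BL/6J animals aged 3, 19 or 24 months. These 9 genes were taken by symbol from the 37980 rows of a deposited FPKM table (a level scaled to transcript length and to the mapped fragments of the library), which holds 3 libraries for each of the 3 ages and 9 libraries in all. Back and belly skin gave the cells, which were sorted by high CD49f, the integrin alpha 6 of basal cells, and by CD34, a surface marker of the follicle bulge. No transgene, deletion or treatment is named for any age, and the sources used here do not give the hour of collection, the hair cycle phase or circulating hormone levels. The genes were chosen with earlier results of these libraries known, among them low values of Tsc22d3, Fkbp5 and Glul at 19 months. Their levels at the 3 ages are therefore a description, with no test, and the calls counted below support nothing.

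Glucocorticoids are steroid hormones of the adrenal cortex whose secretion follows the daily cycle and rises with stress. The unbound receptor is held in the cytoplasm by heat shock protein chaperones. The bound receptor enters the nucleus, where it binds palindromic response elements and raises transcription of genes such as those followed here, while it restrains many inflammatory genes. In skin the hormone is known to limit inflammation, to slow keratinocyte proliferation and to act on the hair cycle.

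The deposited values carry limits that touch these genes. The depth of each library is unknown, and FPKM summed to between 553388 and 738569 over protein-coding rows. Some zeros of the table may be failed estimates, which was not tested: 36 rows were listed at 0 in every library of an age and at 5 FPKM or more in every library of another. None of the 9 genes was listed at 0 in any library (0 of 9). The running numbers in the labels are consecutive within 3 months and, after a gap, across 19 and 24 months, so a difference in handling between 3 months and the later ages cannot be told apart from age. Whether the libraries of an age are separate animals is in no label, so SDs and p-values reflect the spread between libraries alone, which may be technical. In such bulk samples, fewer cells of a type and less RNA per cell cannot be told apart.

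Promoter windows of RefSeq (build GRCm38.p6, 250 bases before to 50 after an annotated start) were searched for 6 of the 9 genes, with 14 windows in all. None was available for Cebpd and Zbtb16, and Nr3c1 was left out of the search. The windows are shown because the receptor acts through DNA, and because these genes shared low values at 19 months. Both strands were searched for ACANNNTGT, the core of the receptor's palindromic element, and for AGAACA, a single arm of it, which reads TGTTCT on the other strand. CACGTG, the E-box bound by clock and Myc family factors, and TGACGTCA, the cAMP response element, were searched too. The core and the arm overlap within a complete element. Capitals mark the matches.

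Sgk1, start 5, chr10:21993640-21993939, plus strand: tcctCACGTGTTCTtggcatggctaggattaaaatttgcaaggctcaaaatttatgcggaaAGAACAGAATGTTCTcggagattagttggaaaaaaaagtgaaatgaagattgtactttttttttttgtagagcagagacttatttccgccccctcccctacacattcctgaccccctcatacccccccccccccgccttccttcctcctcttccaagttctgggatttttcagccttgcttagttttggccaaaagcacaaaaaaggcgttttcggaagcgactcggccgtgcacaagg
Glul, chr1:153899679-153899978, plus strand: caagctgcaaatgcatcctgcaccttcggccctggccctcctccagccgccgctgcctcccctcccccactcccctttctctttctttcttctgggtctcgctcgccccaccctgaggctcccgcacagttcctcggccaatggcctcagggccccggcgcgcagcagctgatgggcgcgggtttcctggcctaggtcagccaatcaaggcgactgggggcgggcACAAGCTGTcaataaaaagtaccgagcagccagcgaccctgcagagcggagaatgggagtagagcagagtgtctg
Tsc22d3, start 3, chrX:140600473-140600772, minus strand: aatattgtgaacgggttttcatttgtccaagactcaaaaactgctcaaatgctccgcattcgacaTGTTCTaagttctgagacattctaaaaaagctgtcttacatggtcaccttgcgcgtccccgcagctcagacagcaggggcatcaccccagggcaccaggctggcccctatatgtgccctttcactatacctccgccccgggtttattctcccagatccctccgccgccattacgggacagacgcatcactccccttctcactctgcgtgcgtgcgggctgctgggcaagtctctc
Fkbp5, chr17:28486100-28486399, minus strand: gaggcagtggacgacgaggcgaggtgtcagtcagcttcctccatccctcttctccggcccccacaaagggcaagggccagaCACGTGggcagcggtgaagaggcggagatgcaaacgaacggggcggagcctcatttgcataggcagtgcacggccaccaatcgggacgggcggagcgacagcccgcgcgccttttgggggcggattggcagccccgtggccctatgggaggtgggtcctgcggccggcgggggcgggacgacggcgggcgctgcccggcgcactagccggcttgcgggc

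The core ACANNNTGT was found in 3 of the 14 windows (1 of Glul and 2 of Sgk1), against 6.85% of all 32851 windows in the RefSeq table. A single arm was found in 4 windows (1 of Tsc22d3 and 3 of Sgk1), against 19.0% of all windows. In window 5 of Sgk1, which encodes a serum- and glucocorticoid-regulated kinase, both arms faced each other with 3 bases between them, 189 bases before the start. That arrangement, searched for after the window had been read, stood in 3 of the 32851 windows (0.009%). In the same window an E-box 246 bases before the start shares its last bases with another arm. The core in the Glul window lay 25 bases before the start, the arm in the Tsc22d3 window 185 bases before it, and the E-box in the Fkbp5 window 169 bases before it. E-boxes were found in 2 of the 14 windows, against 7.15% of all windows. The cAMP response element was found in 1 window, the second of Errfi1, 51 bases before the start, against 1.79% of all windows. The gene with the complete element, Sgk1, was not among those with the largest differences between ages. A match is a description of letters and no site of binding, and no match says only that these letters are not in the window. The table gives 1 value per gene, so the start used in these cells is unknown.

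**Figure D1:**
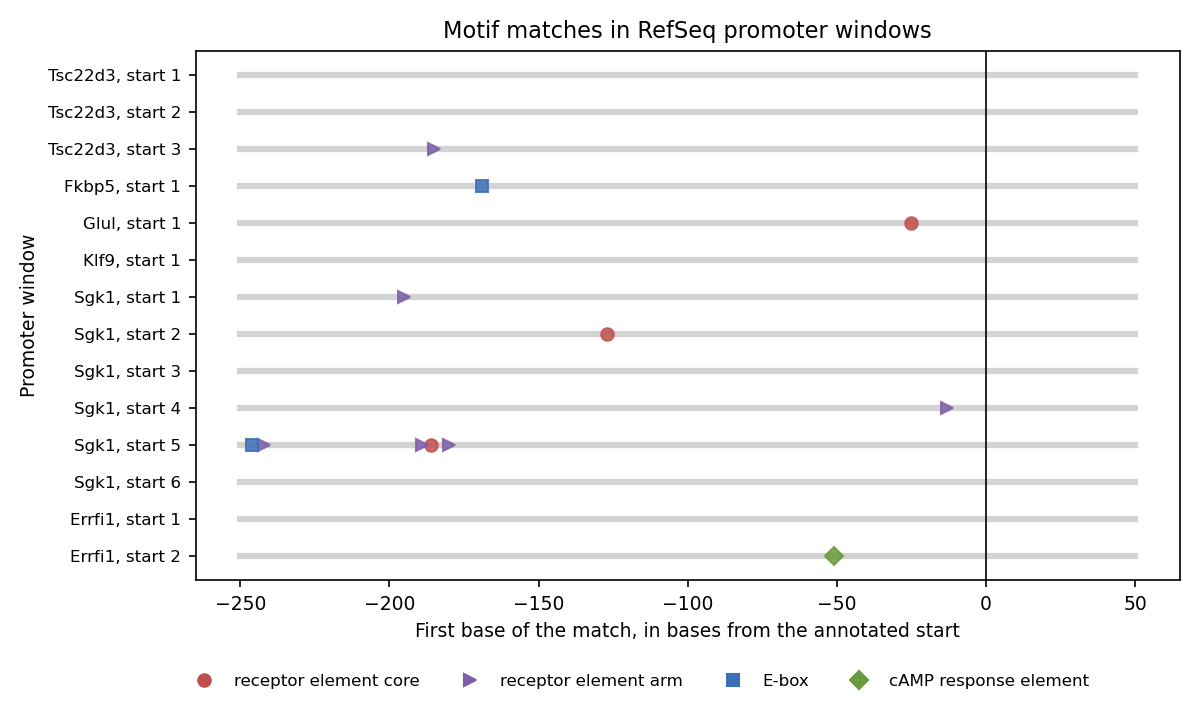
Positions of motif matches in 14 RefSeq promoter windows of 6 genes. The horizontal axis gives the first base of a match in bases from the annotated start, each grey bar is a window, and symbols mark the motif. Window 5 of Sgk1 holds an element core that overlaps both arms, with the first arm 189 bases and the core 186 bases before the start. The Glul window holds a core 25 bases before the start.

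The receptor itself differed little between ages. Nr3c1 (ENSMUSG00000024431) stood at 42.4, 51.2 and 54.0 FPKM in the 3-month libraries, at 39.9, 44.6 and 36.8 FPKM at 19 months, and at 33.7, 41.8 and 44.3 FPKM at 24 months. The 3 ages overlapped in every pairing. Means were 49.2 ± 6.06, 40.4 ± 3.92 and 40.0 ± 5.55 FPKM (SD, n = 3 each). On the log2(FPKM + 1) scale, where changes of low genes come out too small, the difference was -0.27 ± 0.15 at 19 against 3 months (limma SE), -0.30 ± 0.15 at 24 against 3 months and -0.02 ± 0.15 at 24 against 19 months. The mean was therefore highest at 3 months, those of 19 and 24 months lay close together, and the libraries of all ages overlapped.

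Tsc22d3 (ENSMUSG00000031431) encodes GILZ, a leucine zipper protein that mediates part of the anti-inflammatory action of glucocorticoids. Its libraries read 1154.5, 931.9 and 653.4 FPKM at 3 months, 146.7, 136.8 and 94.1 FPKM at 19 months, and 676.7, 1048.6 and 679.3 FPKM at 24 months. By FPKM it was the most abundant of the 9 genes at 3 and 24 months. At 19 months each library lay far under the lowest library of the other ages, and the 3- and 24-month libraries overlapped. Means were 913 ± 251, 126 ± 28.0 and 802 ± 214 FPKM (SD, n = 3 each), 7.26-fold lower at 19 than at 3 months and 6.37-fold higher at 24 than at 19 months. On the log2(FPKM + 1) scale the differences were -2.84 ± 0.23 and 2.66 ± 0.23 (limma SE), the largest of the 9 genes in both comparisons. At 24 against 3 months it was -0.18 ± 0.23, and it lay between -0.40 and 0.01 when 1 library at a time was left out.

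Fkbp5 (ENSMUSG00000024222) encodes FKBP51, an immunophilin that binds the receptor complex and lowers its affinity for hormone, a negative feedback on the receptor. It stood at 16.2, 13.2 and 7.92 FPKM at 3 months, at 2.43, 2.29 and 0.888 FPKM at 19 months, and at 4.98, 16.9 and 23.4 FPKM at 24 months. All 3 libraries of 19 months were under all others, while the 24-month libraries were spread more widely than at any other age, with replicate 2 far under replicates 3 and 4. Means were 12.4 ± 4.21, 1.87 ± 0.854 and 15.1 ± 9.35 FPKM. The log2 differences were -2.22 ± 0.40 at 19 against 3 months, 0.09 ± 0.40 at 24 against 3 months and 2.31 ± 0.40 at 24 against 19 months. Without 24 months replicate 2 the last reached 2.91, and without replicate 4 it was 1.90. At 24 against 3 months the sign turned with the library left out, from -0.33 without 24 months replicate 4 to 0.69 without 24 months replicate 2.

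Among the induced transcription factor genes, Klf9 (ENSMUSG00000033863), a Krüppel-like factor, had the tightest replicates. It read 34.0, 38.4 and 31.9 FPKM at 3 months, 16.6, 12.1 and 12.4 FPKM at 19 months, and 29.3, 29.8 and 32.3 FPKM at 24 months. The 19-month libraries stood apart from the rest, and the 3- and 24-month libraries overlapped narrowly. The log2 differences were -1.29 ± 0.15 at 19 against 3 months, 1.11 ± 0.15 at 24 against 19 months and -0.18 ± 0.15 at 24 against 3 months. The annotation places the microRNA gene Mir1192 inside Klf9 on the same strand, a row at 36.7 to 234 FPKM.

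Zbtb16 (ENSMUSG00000066687) encodes PLZF, a zinc finger repressor. The libraries read 23.2, 29.2 and 17.1 FPKM at 3 months, 9.93, 6.23 and 6.55 FPKM at 19 months, and 12.2, 23.9 and 34.2 FPKM at 24 months. As for Fkbp5, the 24-month replicate 2 was the lowest of its age and the closest to the 19-month libraries, though still above them. The log2 differences were -1.49 ± 0.29 at 19 against 3 months, 1.43 ± 0.29 at 24 against 19 months and -0.07 ± 0.29 at 24 against 3 months.

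Cebpd (ENSMUSG00000071637) encodes C/EBP delta, an acute-phase transcription factor, and was the least abundant of the 9 genes at 3 and 19 months. Its values were 6.01, 3.42 and 2.56 FPKM at 3 months, 2.38, 0.893 and 1.89 FPKM at 19 months, and 7.80, 6.52 and 10.5 FPKM at 24 months. It was the 1 gene whose 24-month libraries lay above every 3-month library, and its 3- and 19-month libraries were separated by a narrow gap. Means were 3.998 ± 1.80, 1.72 ± 0.758 and 8.26 ± 2.01 FPKM. The log2 difference was 1.79 ± 0.27 at 24 against 19 months, 0.93 ± 0.27 at 24 against 3 months and -0.86 ± 0.27 at 19 against 3 months. Spidr, a DNA repair gene on the opposite strand that overlaps Cebpd, stood at 11.2 to 16.9 FPKM over the 9 libraries. The sources used here do not give strand use, so reads of the pair cannot be told apart.

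Glul (ENSMUSG00000026473) encodes glutamine synthetase, which makes glutamine from glutamate and ammonia. It stood at 87.5, 79.6 and 56.3 FPKM at 3 months, at 21.2, 17.4 and 16.3 FPKM at 19 months, and at 41.9, 69.4 and 75.4 FPKM at 24 months. The 19-month libraries were again the lowest, and those of 3 and 24 months overlapped. The mean was 4.07-fold lower at 19 than at 3 months and 3.40-fold higher at 24 than at 19 months. The log2 differences were -1.95 ± 0.21, 1.68 ± 0.21 and, at 24 against 3 months, -0.28 ± 0.21. Teddm2, which overlaps Glul on the opposite strand, was listed at 0.632 to 1.83 FPKM at 3 months, 0.0920 to 0.221 FPKM at 19 months and 0.948 to 1.75 FPKM at 24 months. Like Glul it was lowest at 19 months, and with strand unknown the source of those reads was not tested.

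Of the signalling genes, Sgk1 had the smallest differences of the induced genes between 19 months and the other ages. Sgk1 (ENSMUSG00000019970) promotes sodium transport and cell survival, and its libraries read 270.0, 246.5 and 228.5 FPKM at 3 months, 189.5, 211.8 and 201.8 FPKM at 19 months, and 228.9, 305.5 and 219.9 FPKM at 24 months. The 19-month libraries were below the others, but by a narrow margin. Log2 differences were -0.30 ± 0.14 at 19 against 3 months, 0.31 ± 0.14 at 24 against 19 months and 0.01 ± 0.14 at 24 against 3 months, and the first was -0.50 after quantile normalisation. At 19 months Sgk1, at 201 ± 11.1 FPKM, stood above Tsc22d3, the reverse of their order at 3 and 24 months.

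Errfi1 (ENSMUSG00000028967) encodes MIG6, a feedback inhibitor of the EGF receptor. The libraries read 10.1, 9.21 and 7.59 FPKM at 3 months, 5.55, 2.29 and 4.45 FPKM at 19 months, and 5.06, 8.87 and 6.28 FPKM at 24 months. The 19- and 24-month libraries overlapped, as did those of 24 and 3 months. The log2 differences were -1.02 ± 0.24 at 19 against 3 months, 0.63 ± 0.24 at 24 against 19 months and -0.39 ± 0.24 at 24 against 3 months.

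**Figure D2:**
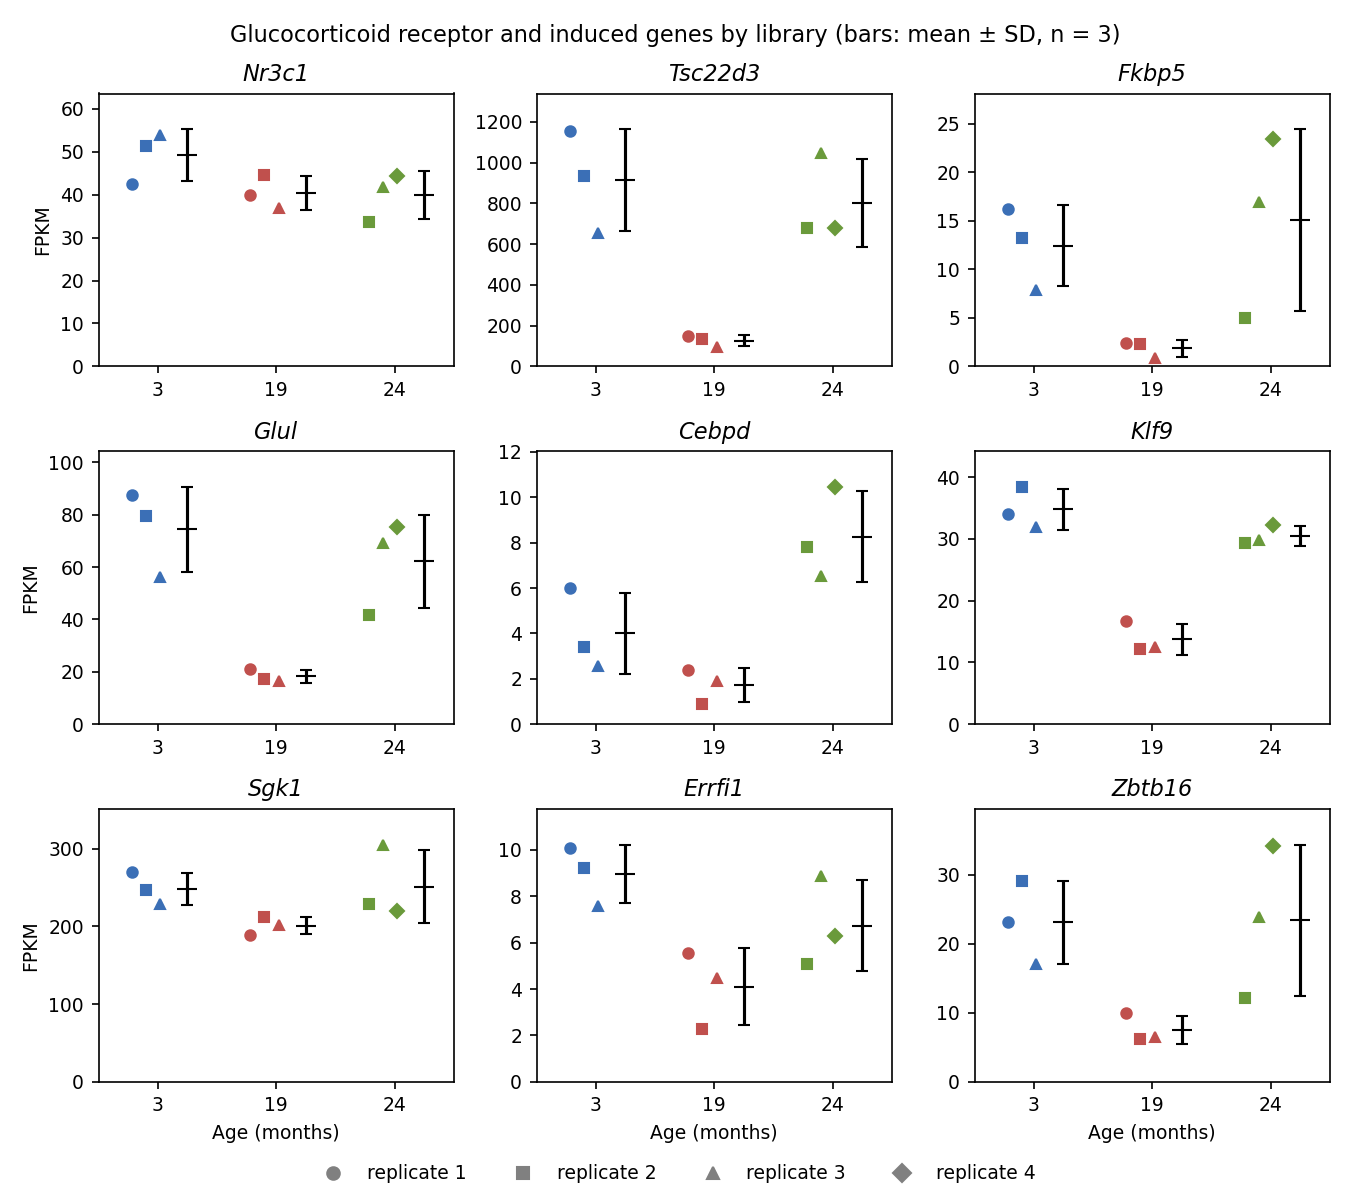
FPKM of each gene (vertical axes, linear from 0) in each of the 9 libraries by age in months, with a symbol for each replicate number and the mean ± SD (n = 3) beside them. The 19-month libraries of Tsc22d3 lie between 94.1 and 146.7 FPKM, under every library of the other ages, while those of Nr3c1 overlap.

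Counted together, 8 of 9 genes had their lowest mean at 19 months, and in 7 every 19-month library lay under every library of the other ages, as it did in 2.15% of the 11509 protein-coding genes tested. The exceptions to the complete separation were Nr3c1 and Errfi1. At 19 against 3 months 8 of 9 did not overlap and were lower (11.6% of all tested genes were), and at 24 against 19 months 7 of 9 did not overlap and were higher (7.94% of all). At 24 against 3 months 1 of 9, Cebpd, did not overlap and was higher (10.6% of all). The median log2 differences over the 9 genes were -1.29, 1.43 and -0.18 at 19 against 3, 24 against 19 and 24 against 3 months, beside medians of 0.01, -0.02 and 0.00 over all tested genes. The comparisons share libraries, so a low value at 19 months enters 2 of them.

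The fit of limma across the whole table, with Benjamini-Hochberg adjustment over all genes tested and a threshold of 0.05, is given for the same genes as a count with its background. On protein-coding genes it called 5 of 9 at 19 against 3 months (Tsc22d3, Fkbp5, Glul, Klf9 and Zbtb16), all lower, beside 0.964% of all genes called lower. At 24 against 19 months it called 6 of 9 (these 5 and Cebpd), all higher, beside 0.712% of all genes called higher. At 24 against 3 months limma called 0 of 9, beside 3.84% of all genes called in either direction. There 1 of 9 had an unadjusted p under 0.05, beside 2490 of all 11509 genes. A fit on all 14275 rows that passed the filter called 3 of 9 (Tsc22d3, Glul and Klf9), 1 of 9 (Tsc22d3) and 0 of 9, beside 0.224% called lower, 0.0210% called higher and 0.203% called in either direction. The members were chosen with these contrasts known, so nothing is read from these counts. Without 3 months replicate 1, or without replicate 2, the protein-coding fit called 3 of 9 at 19 against 3 months. Without 3 months replicate 1 it called Cebpd at 24 against 3 months.

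**Figure D3:**
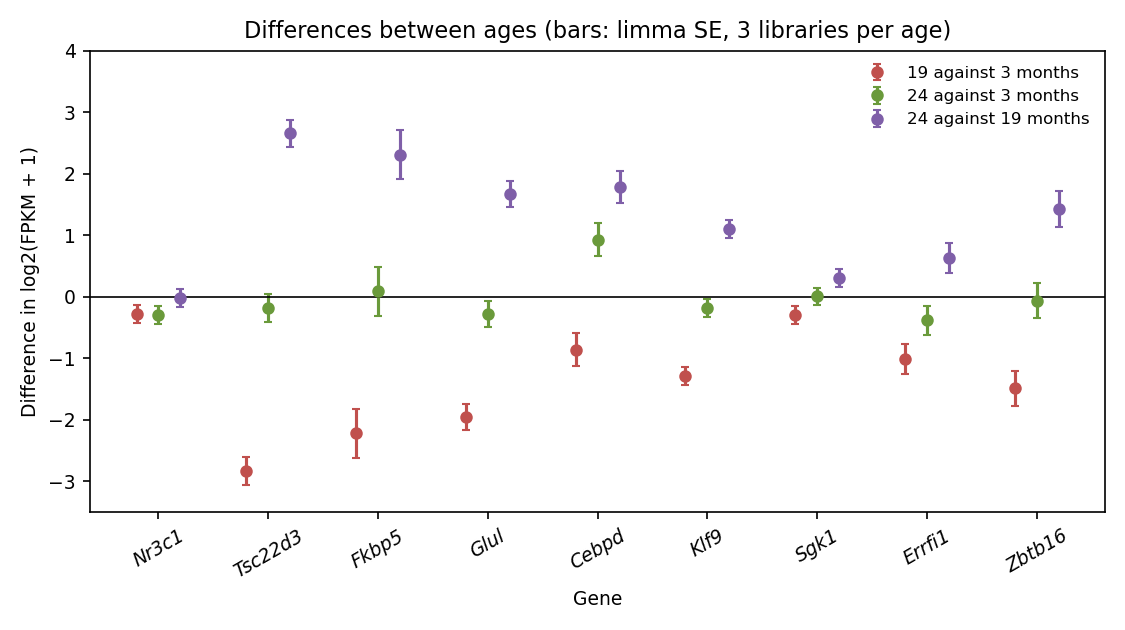
Differences in log2(FPKM + 1) between ages for the 9 genes, with limma SEs from 3 libraries per age. Values at 19 against 3 months lie between -2.84 and -0.27, those at 24 against 19 months between -0.02 and 2.66, and those at 24 against 3 months between -0.39 and 0.93 (Cebpd). The comparisons share libraries.

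The library that held the lowest or highest value of an age was compared across the 8 induced genes. At 3 months replicate 3 held the lowest value of all 8 induced genes, while 33.3% of all tested genes were lowest in that library, and Nr3c1 was highest there. Replicate 1 held the highest value of 6 of 8 and replicate 2 that of the other 2 (Klf9 and Zbtb16), beside 26.5% and 39.0% of all tested genes. At 19 months replicate 1 held the highest value of 7 of 8, beside 33.3% of all tested genes, while Sgk1 was lowest there. The lowest values at 19 months were split, with 1, 4 and 3 of 8 in replicates 1, 2 and 3, beside 41.5%, 24.8% and 33.7% of all tested genes. At 24 months replicate 2 held the lowest value of 6 of 8, beside 41.3% of all tested genes, and the exceptions were Cebpd and Sgk1. The highest values were split between replicate 3 (3 of 8, beside 37.9% of all tested genes) and replicate 4 (5 of 8, beside 34.0%). These orders were noticed in the values and carry no test. Libraries of an age have no order of their own, and what the low libraries share was not tested.

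**Figure D4:**
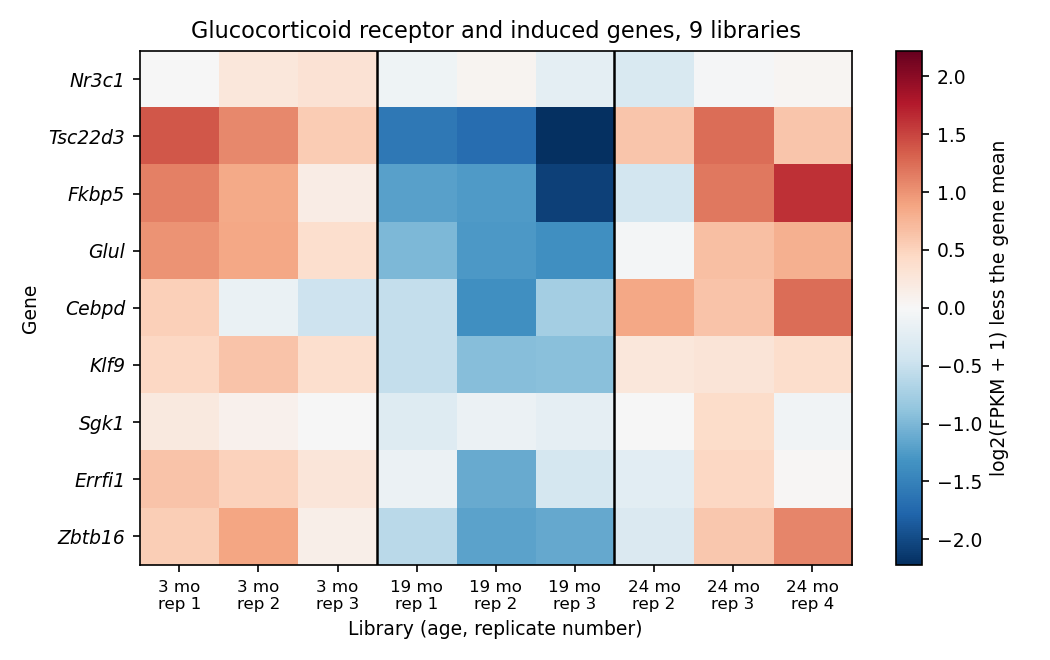
Value of each gene in each library as log2(FPKM + 1) less the gene's mean over the 9 libraries, with libraries grouped by age along the horizontal axis and genes on the vertical axis. The block of low values at 19 months spans the 8 induced genes and not Nr3c1, and the 24-month replicate 2 is lower than its 2 neighbours for Fkbp5, Glul and Zbtb16.

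Genes with the most similar course across the 9 libraries were found by the root-mean-square distance between log2 values, each less its own mean, among 8129 tested genes of at least 5 FPKM on average. Among the nearest to Tsc22d3 were Angptl7, a secreted angiopoietin-like protein (distance 0.48), and Fam46b, a non-canonical poly(A) polymerase gene (0.52), where the median gene lay at 1.36. For Fkbp5 the nearest were Angptl7 (0.36), the clock gene Per2 (0.58) and Usp54, a ubiquitin-specific peptidase family gene (0.58), with the median gene at 1.25. For Glul they included Per2 (0.27) and Usp54 (0.32), with the median gene at 0.94. Per2 read 15.2, 10.3 and 11.8 FPKM at 3 months, 3.95, 4.13 and 2.43 FPKM at 19 months, and 8.59, 13.8 and 11.6 FPKM at 24 months, so its 19-month libraries were separated from both other ages. It had means of 12.4 ± 2.499, 3.50 ± 0.934 and 11.3 ± 2.62 FPKM at 3, 19 and 24 months. Usp54 shared with Fkbp5 a low 24-month replicate 2, at 13.7 FPKM beside 39.5 and 34.5 FPKM in replicates 3 and 4. The distances describe these 9 libraries, which share their processing and ages.

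The remaining pathway was described with 5 lists taken from general knowledge, 93 genes in all, of which 65 could be tested (Fkbp4 and Nr3c2 stand in 2 lists). The lists were chosen with earlier results of these data known, so their counts are a description. The list of receptor machinery (chaperones, coactivators and corepressors, with the mineralocorticoid receptor gene Nr3c2) had 15 of 15 genes tested and 0 called by limma at each of the 3 comparisons, in the protein-coding and in the all-row fit. At an unadjusted p under 0.05 it held 1, 2 and 1 at 19 against 3, 24 against 3 and 24 against 19 months. In the same order, 1804, 2490 and 1468 of all 11509 genes of the protein-coding fit lay under that threshold. The median log2 differences of the list were -0.05, -0.03 and 0.03. The chaperone gene Hsp90ab1 was the most abundant of this list, at 725 to 1004 FPKM. Fkbp4, whose product FKBP52 opposes FKBP51 at the receptor, stood at 67.9 ± 8.07, 61.1 ± 7.60 and 48.0 ± 3.21 FPKM, with a log2 difference of -0.49 ± 0.14 at 24 against 3 months that did not pass (limma adjusted p = 0.0612). Nr3c2 was low, at 2.51 ± 0.363, 2.26 ± 0.410 and 1.74 ± 0.446 FPKM.

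Of the genes that make, convert or export the hormone, 4 of 10 reached 1 FPKM in 3 libraries and 0 were called by limma at any comparison in either fit (0 at an unadjusted p under 0.05). Of all 11509 genes, 180, 442 and 107 were called at 19 against 3, 24 against 3 and 24 against 19 months. In the all-row fit it was 40, 29 and 7 of 14275 rows. With so few genes tested, nothing is read from the 0. Hsd11b1, which regenerates active hormone inside cells, lay between 0 and 0.761 FPKM over the 9 libraries. Hsd11b2, which inactivates it, lay between 0.0210 and 0.586 FPKM. With depth unknown, no absence is claimed for either.

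The list of other genes that glucocorticoids are known to induce had 28 of 35 genes tested. At 19 against 3 months the protein-coding fit called 2, both lower, beside 0.964% of all tested genes called lower, and 20 of 28 lay below 0 with a median of -0.29, beside 5666 of 11509 genes below 0. Per1, a clock gene with a receptor element, fell from 15.4 ± 1.04 to 6.72 ± 1.86 FPKM (log2 -1.11 ± 0.18, limma adjusted p = 0.00429), and the call held in each fit that left out 1 library (highest adjusted p = 0.0293). Foxo3, a forkhead factor of stress resistance, fell from 25.1 ± 1.74 to 13.4 ± 1.60 FPKM (log2 -0.87 ± 0.18, limma adjusted p = 0.0245). The Foxo3 call was lost in 4 of 9 fits that left out 1 library (highest adjusted p = 0.123, without 19 months replicate 3). Neither gene passed in the all-row fit (limma adjusted p = 0.0631 and 0.157).

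At 24 against 19 months 5 of the 28 were called higher and 0 lower, beside 0.712% of all tested genes called higher. Of the 28, 24 lay above 0 with a median of 0.37, beside 5384 of 11509 genes above 0. Per1 returned to 15.6 ± 1.80 FPKM (log2 1.12 ± 0.18, limma adjusted p = 0.00795, and 0.0543 without 19 months replicate 2). The metallothionein genes Mt1 and Mt2, which encode zinc-binding proteins, rose by log2 differences of 0.94 ± 0.17 and 1.07 ± 0.17 (limma adjusted p = 0.0208 and 0.0102). Mt1 read 943.9, 710.6 and 798.4 FPKM at 19 months and 1681, 1470 and 1539 FPKM at 24 months, without overlap. Dusp1, a phosphatase that switches off MAP kinases, rose from 29.8 ± 12.0 to 68.1 ± 5.24 FPKM (log2 1.23 ± 0.22, limma adjusted p = 0.0186). Il1rn, the antagonist of the interleukin-1 receptor, rose by a log2 of 0.67 ± 0.14 (limma adjusted p = 0.0339). The calls of Mt1, Mt2, Dusp1 and Il1rn were lost in 3, 2, 4 and 7 of 9 fits that left out 1 library. The highest adjusted p was 0.123, 0.0750 and 0.0785 for the first 3, each without 19 months replicate 2, and 0.184 for Il1rn without 19 months replicate 3. Of these 5 genes 0 passed in the all-row fit (smallest limma adjusted p = 0.113). In that fit 11 of the 28 had an unadjusted p under 0.05, beside 1526 of all 14275 rows.

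At 24 against 3 months 4 of the 28 were called higher and 0 lower, beside 1.50% of all tested genes called higher, with a median of 0.09 over the list. They were Dusp1, at 31.5 ± 6.19 FPKM at 3 months (log2 1.10 ± 0.22, limma adjusted p = 0.0131), Cdkn1c, a CDK inhibitor (1.04 ± 0.23, adjusted p = 0.0218), Cited2, a transcriptional coregulator (0.70 ± 0.16, adjusted p = 0.0240), and Txnip, a thioredoxin inhibitor (0.91 ± 0.22, adjusted p = 0.0323). At 19 against 3 months the differences of Dusp1, Cdkn1c and Txnip were -0.13, 0.09 and 0.04 and did not pass (smallest limma adjusted p = 0.808). Cited2 was already higher there, at 34.1, 28.5 and 25.9 FPKM against 21.5, 24.3 and 22.2 FPKM, without overlap, and did not pass either (log2 0.36, limma adjusted p = 0.291). Txnip read 418 ± 70.8, 428 ± 58.6 and 815 ± 264 FPKM, and its 24-month replicate 2, at 511 FPKM, was well under the 950 and 985 FPKM of replicates 3 and 4. Without 3 months replicate 2, 0 genes of the 5 lists were called at 24 against 3 months. Single calls were lost in 2 fits (Dusp1) or 4 fits (Cdkn1c, Cited2 and Txnip) of 9, at up to 0.0609, 0.0954, 0.123 and 0.146. In the all-row fit 0 were called, with 12 of 28 at an unadjusted p under 0.05, beside 2655 of all 14275 rows.

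Of 20 inflammatory genes that the hormone is known to restrain, 8 could be tested, and 12, among them Il1b, Il6 and Tnf, did not reach 1 FPKM in 3 libraries. The median log2 differences were 0.06, 0.25 and -0.15 at 19 against 3, 24 against 3 and 24 against 19 months. At 19 against 3 and 24 against 19 months limma called 0 in either fit. In the protein-coding fit 1 and 3 had an unadjusted p under 0.05, beside 1804 and 1468 of all 11509 tested genes. At 24 against 3 months 1 was called higher, beside 1.50% of all tested genes called higher. There 5 of 8 had an unadjusted p under 0.05, beside 2490 of 11509, and 5 lay above 0 and 3 below. The called gene was Tslp, an epithelial cytokine that acts on dendritic cells. It rose from 3.18 ± 0.337 to 6.56 ± 1.37 FPKM (log2 0.84 ± 0.18, limma adjusted p = 0.0162). That call was lost in 2 fits that left out 1 library (highest adjusted p = 0.0817, without 24 months replicate 4), and in the all-row fit (0.0700).

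Relatives of the 9 genes were listed as a comparison within families, and 12 of 15 could be tested. Klf13, a Krüppel-like factor of the same subgroup as Klf9, read 134.8, 162.6 and 121.5 FPKM at 3 months, 73.5, 73.1 and 66.9 FPKM at 19 months, and 101.4, 118.1 and 100.7 FPKM at 24 months. It fell at 19 against 3 months (log2 -0.95 ± 0.14, limma adjusted p = 0.00214, and 0.0370 in the all-row fit), a call kept whichever library was left out (highest adjusted p = 0.0143). At 24 against 19 months its difference was 0.58 ± 0.14 and did not pass (limma adjusted p = 0.0621). The relatives of Tsc22d3 differed less than it did. Tsc22d1 stood at 41.2 ± 7.15, 31.4 ± 3.44 and 30.8 ± 5.10 FPKM, Tsc22d2 at 3.11 ± 0.468, 2.18 ± 0.0686 and 2.85 ± 0.580 FPKM, and Tsc22d4 at 14.5 ± 3.79, 15.8 ± 3.02 and 13.5 ± 1.47 FPKM. Of these 3 relatives 0 passed (lowest limma adjusted p over the comparisons, 0.156). The difference between relatives was not tested.

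The other relatives gave 1 further call. Cebpb, another C/EBP factor gene, varied widely within every age and stood at 6.11 ± 4.69, 5.29 ± 1.86 and 7.91 ± 5.12 FPKM, and Cebpa, which acts in differentiation, at 6.27 ± 1.04, 7.92 ± 0.496 and 9.29 ± 4.09 FPKM. Sgk3, a kinase related to Sgk1, stood at 36.0 ± 2.26, 25.9 ± 0.927 and 27.1 ± 6.57 FPKM. Cebpg stood at 8.90 ± 0.243, 8.16 ± 0.969 and 8.55 ± 2.02 FPKM, and Klf16, a relative of Klf9, at 6.76 ± 1.80, 7.57 ± 0.917 and 6.54 ± 0.409 FPKM. None of these C/EBP genes, Klf16 or Sgk3 passed (lowest limma adjusted p over the comparisons, 0.154). Fkbp1a, which encodes the small immunophilin FKBP12, fell from 86.8 ± 13.0 to 53.8 ± 10.2 FPKM at 24 against 3 months (log2 -0.69 ± 0.15, limma adjusted p = 0.0234), a call lost in 2 fits that left out 1 library (highest adjusted p = 0.118, without 24 months replicate 4) and in the all-row fit (0.104).

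**Figure D5:**
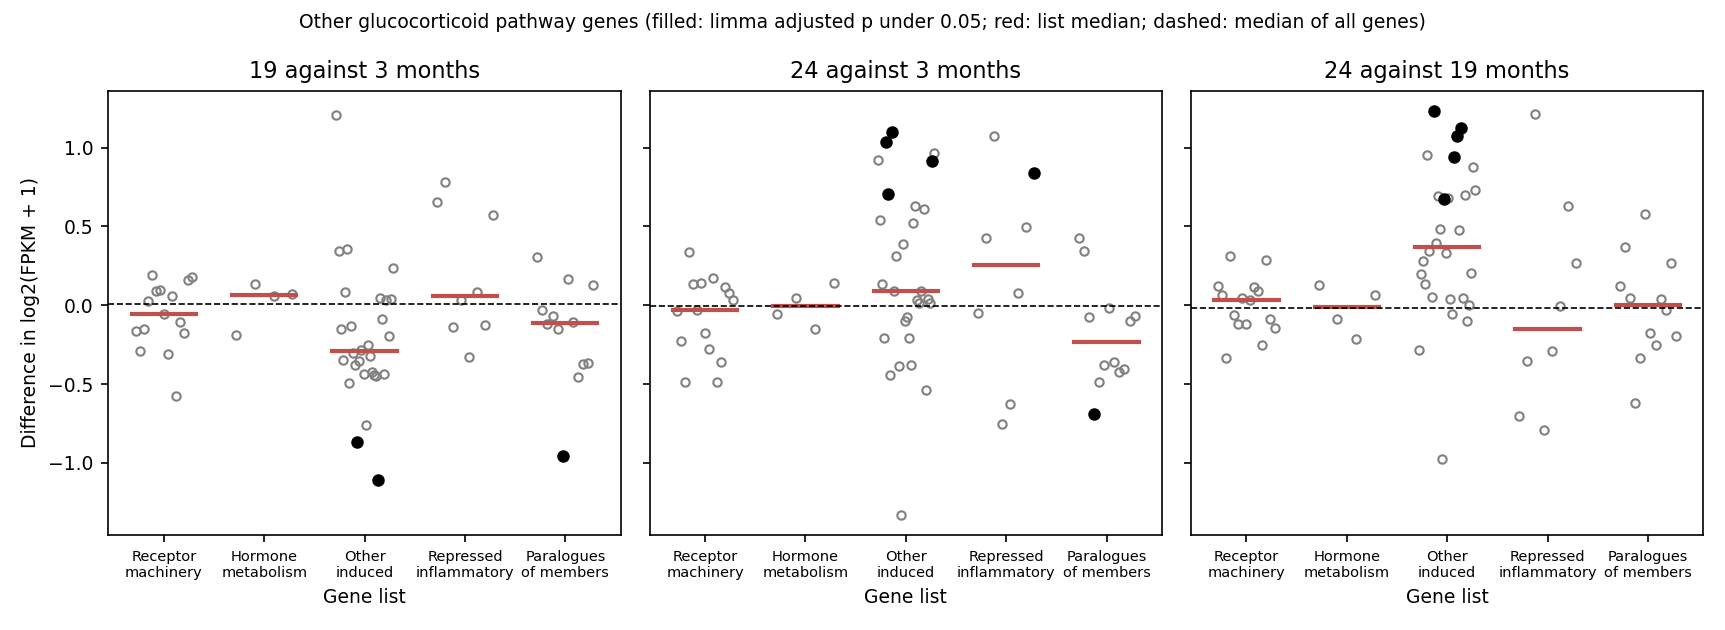
Differences in log2(FPKM + 1) for the tested genes of 5 pathway lists (horizontal axis) in 3 panels, 1 per comparison. Each point is a gene, filled where limma's adjusted p was under 0.05, the red line is the list median and the dashed line the median of all tested genes. The list of other induced genes has a median of -0.29 at 19 against 3 months and 0.37 at 24 against 19 months, and the other lists lie nearer 0 in those panels.

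Markers of other cells were summed beside these results. The 9 bulge markers ranged from Krt14 at 3235 to 6619 FPKM and Cd34 at 403 to 632 FPKM down to Tcf3 at 3.53 to 6.71 FPKM, while all 9 libraries list the bulge keratin gene Krt15 at 0. By limma the bulge regulators Nfatc1 and Sox9 rose at 19 against 3 months (log2 0.78 and 0.66, adjusted p = 0.0264 and 0.0348), and the stem cell marker Lgr5 fell at 24 against 3 months (-1.01, adjusted p = 0.00581). The part of these shifts in the result was not tested. The 10 immune cell markers summed to 39.9 to 88.0 FPKM at 3 months, 30.6 to 69.2 FPKM at 19 months and 46.8 to 81.9 FPKM at 24 months, with overlap. Of these 10, 6 had their lowest mean at 19 months. So did 4 of 5 melanocyte, 4 of 6 fibroblast, 3 of 6 sebocyte and 2 of 6 suprabasal markers. For bulge, adipocyte and endothelial markers it was 1 of 9, 1 of 4 and 0 of 4. Cd74, at 17.6 to 53.7 FPKM, was the largest contributor and differed by a log2 of -0.01 at 19 against 3 months. Cd3e, Cd3g and Cd52 differed by -0.57, -0.82 and -0.39 at 19 against 3 months and by 1.04, 0.98 and 0.86 at 24 against 19 months, and did not pass (smallest limma adjusted p = 0.0621). In 2 of the 10, Fcer1g and Ptprc, every 19-month library lay under all others, as in 2.15% of all 11509 tested genes. Ptprc was too low to be tested and is not part of that share. The sebocyte marker Mc5r was separated in the same way, and no marker of the remaining lists was. Fcer1g read 3.48, 4.59 and 3.04 FPKM at 3 months, 1.07, 1.74 and 1.76 FPKM at 19 months, and 5.64, 4.73 and 7.40 FPKM at 24 months. It passed the test at 19 against 3 months (log2 -0.90, limma adjusted p = 0.0373) and at 24 against 19 months (1.45, adjusted p = 0.00403), in the direction of Tsc22d3. Ptprc, which marks leukocytes in general, did not exceed 0.620 FPKM, and Lyz2 was listed at 0 in 8 of 9 libraries. Immune cells are known to express Tsc22d3 and Fkbp5, and the part of these cells in the result was not tested. The 6 sebocyte markers summed to 59.4 to 78.1 FPKM at 3 months, 19.8 to 28.4 FPKM at 19 months and 19.8 to 26.1 FPKM at 24 months. Of the 5 that could be tested, limma called 5 lower at 19 against 3 months and 5 lower at 24 against 3 months (largest adjusted p = 0.0373). Over all 11509 tested genes, limma called 111 and 269 lower at these comparisons. The same counts are the background for the melanocyte and endothelial calls below. The 5 melanocyte markers summed to 12.2 to 17.9, 6.54 to 8.45 and 4.19 to 9.20 FPKM. Of the 4 that could be tested, limma called only Tyrp1, lower at 19 against 3 and 24 against 3 months (log2 -1.39 and -1.31, adjusted p = 0.0139 and 0.0131). The 4 endothelial markers summed to 11.8 to 14.2, 9.58 to 10.7 and 5.60 to 7.23 FPKM, with Cdh5 at 0 in 8 of 9 libraries. Egfl7 and Ramp2 could be tested, and limma called both lower at 24 against 3 months (log2 -0.83 and -0.88, adjusted p = 0.0219 and 0.00697). The 6 fibroblast markers summed to 5.99 to 8.75 FPKM at 3 months, up to 12.0 FPKM at 19 months and 9.42 to 16.8 FPKM at 24 months, so the sums of both later ages lay above 3 months. Most of the sum was Col1a2, at 4.46 to 6.92, 8.94 to 10.7 and 8.24 to 10.3 FPKM at 3, 19 and 24 months. The list did not move as 1, since 4 of the 6 had their lowest mean at 19 months, among them Col1a1 (log2 -0.30 at 19 against 3 months). The 4 adipocyte markers did not exceed a sum of 2.84 FPKM, with Plin1 and Adipoq at 0 in 8 of 9. The 6 suprabasal keratinocyte markers summed to 1990 to 2941, 2398 to 3203 and 2235 to 3953 FPKM, with overlap. All marker calls come from the protein-coding fit with all 9 libraries. Whether they hold in the all-row fit, or with a library left out, was not examined. The part of these other cells in the result was not tested.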

How the data were processed

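RNA of sorted hair follicle stem cells was measured in 9 libraries, 3 each at 3, 19 and 24 months, grouped by the age in the sample titles. The deposited unit is FPKM, 1 value per gene and library; per the submitters' processing notes the authors used TopHat, Cuffdiff and build NCBIM37, and the sources used here give no versions or settings. The low values gave no step of 1 read (the commonest log2 ratio between a pair of libraries held 1.47% of 1837 low rows), so depth is unknown, and no count model was used.

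Values were taken as log2(FPKM + 1) and fitted with limma 3.58.1 in R 4.3.3, with a mean-dependent prior variance, all 9 libraries in 1 model, two-sided, Benjamini-Hochberg adjustment over all genes tested and a threshold of 0.05. The fit held 11509 protein-coding genes at 1 FPKM or more in 3 or more libraries, without rows listed at 0 at an age. Gene types came from GENCODE M21, which matched 32916 of 37980 rows and is on another build, so no coordinates of it are printed. This fit was known to call more genes than one on all 14275 rows, whose counts are given beside it. The procedure was tested on simulated data. The 9 genes, the lists and the tests were chosen with earlier results of these data known. By rule, the text names beyond the 9 genes all called genes of the 5 pathway lists, tested relatives, and the 3 genes nearest in course to Tsc22d3, Fkbp5 and Glul, of which 1 is not reported here; genes that overlap a member, Hsp90ab1, Hsd11b1, Hsd11b2, Il1b, Il6, Tnf and single marker genes were named after their values were seen. Alternatives were another pseudocount, other filters, all table rows, quantile normalisation, a robust prior, only the ages compared, a replicate block and leaving out each library. Deviations of same-numbered libraries of different ages correlated weakly and with both signs, so the numbers were not taken as pairs.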

Additional observations from a re-analysis of the deposited data

How the results depend on the processing

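Depth is unknown, so precision rests on 3 libraries per age. Under other settings 483 member differences moved by less than the spread between replicates, 3 moved more and 0 called ones turned their sign; Fkbp5 at 19 against 3 months and Cebpd at 24 against 19 months reached -2.73 and 2.27 with a pseudocount of 0.1, and Sgk1 is given above. The counts depended on the rows fitted; below they follow the order 19 against 3, 24 against 3 and 24 against 19 months, and other causes were not tested. All genes called were 180, 442 and 107. With no filter they were 53, 118 and 0, with 2184, 2853 and 1788 of 16802 genes at an unadjusted p under 0.05. On all table rows they were 40, 29 and 7, with 1993, 2655 and 1526 of 14275 rows at an unadjusted p under 0.05. On all table rows without those listed at 0, a setting chosen after seeing the data, they were 27, 0 and 0. There 1976, 2630 and 1504 of 14239 rows had an unadjusted p under 0.05. Quantile normalisation gave 59 at the third. Leaving out 1 library gave 46 to 231, 133 to 457 and 20 to 214. The lower counts at the first came with 3 months replicate 1 (46) or 2 (81) or 19 months replicate 2 (85) or 3 (72) left out. At the second it was 3 months replicate 2 (142) or 3 (281) or 24 months replicate 4 (133). At the third it was 3 months replicate 2 (49), 19 months replicate 2 (20) or 3 (30) and 24 months replicate 3 (53) or 4 (22), while leaving out 24 months replicate 2 gave 214. Members called were 5, 0 and 6. They were 3, 0 and 0 with no filter (7, 1 and 7 at an unadjusted p under 0.05), 3, 0 and 1 on all table rows and 3, 0 and 0 without rows listed at 0 (7, 1 and 6 at an unadjusted p under 0.05). With only the ages compared in the fit the second was 1 (Cebpd), and leaving out 1 library gave 3 to 6, 0 to 1 and 4 to 6. Pathway genes called were 3, 6 and 5 of 65. They were 2, 0 and 0 with no filter (19, 23 and 19 at an unadjusted p under 0.05) and 1, 0 and 0 on all table rows, with or without rows listed at 0 (12, 20 and 16 at an unadjusted p under 0.05). Leaving out 1 library gave 2 to 3, 0 to 8 and 0 to 10. The second was 0 with 3 months replicate 2 left out, 3 with replicate 3 and 2 with 24 months replicate 4. The third was 0 with 19 months replicate 2 left out, 2 with replicate 3, and 10, 3 or 1 with 24 months replicate 2, 3 or 4. With the replicate block, 253, 158 and 110 genes, 6, 0 and 5 members and 4, 3 and 6 pathway genes were called. Deviations of same-numbered libraries correlated between -0.20 and 0.19 over genes (7 pairs). Correlations of both signs cannot tell whether same-numbered libraries were handled together.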
